A study of Mus musculus with 6 samples.

Results

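Amino acid carriers move amino acids across the plasma membrane and the lysosomal membrane, and 6 mouse gene families that hold many of them were read out here from cultured bone marrow cells: Slc1a, Slc3a, Slc7a, Slc36a, Slc38a and Slc43a. Members were taken by symbol, as protein-coding genes whose name starts with one of these stems followed by a digit. The rule found 43 of the 49328 genes listed, and each of the 43 such genes in the reference annotation was listed. It also took in Slc7a6os, which is named for its place beside Slc7a6 and is not a carrier, so that 42 members were carriers. Slc43a3 belongs to its family by sequence but is known as a carrier of purine nucleobases.

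The labels describe mesenchymal stromal cells (MSCs, plastic-adherent stromal cells), set free by digestion of unsorted marrow from mice of the hybrid strain CB6F1 with acute graft-versus-host disease (aGVHD, the attack of transplanted donor immune cells on the recipient). In culture, 3 libraries came from cells given a compound labelled only R (0.5 um, unit as labelled) and 3 from cells given the vehicle, DMSO. The labels give no sort of the cells, no age of the mice and no treatment time, and both groups came from mice with the disease. Whether a replicate stands for its own animal or culture is not stated either, so the p-values below reflect the scatter of these samples, which may be technical.

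Levels are in FPKM (fragments scaled to gene length and to the counted reads of the library), from libraries with an estimated 17070000 to 21760000 reads. The 6 libraries correlated at 0.977 to 0.986 within a group and 0.936 to 0.963 between groups (Pearson's r across genes, which are not independent replicates). Macrophage transcripts were abundant beside the stromal ones. The defining macrophage genes Lyz2, Cd68 and Csf1r were high in each library, Cd68 at 646 to 794 FPKM. The stromal collagen gene Col1a1 had 127 to 588 FPKM, whereas the stromal receptor Pdgfra had 1.78 to 6.16 FPKM. The lymphocyte gene Cd3e was at 0.0136 to 0.353 FPKM, the endothelial gene Pecam1 at 0.189 to 0.664 FPKM and the neutrophil gene Elane at 0 in each library.

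The carriers differ in what they move and how. Slc7a light chains work as pairs with a heavy chain: Slc3a2 (4F2hc, the CD98 heavy chain) brings the system L carriers Slc7a5 (LAT1) and Slc7a8 (LAT2), the y+L carriers Slc7a6 and Slc7a7 and the cystine-glutamate exchanger Slc7a11 (xCT) to the cell surface. Other Slc7a proteins, the CATs, carry arginine and lysine without a heavy chain, the Slc38a proteins (SNATs) carry glutamine and other small neutral amino acids, and the Slc1a proteins carry glutamate or, as ASCT1 and ASCT2, small neutral amino acids. When amino acids run short, the transcription factor ATF4 is known to raise several of these genes through a promoter site called the amino acid response element.

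Of the 43 members, 22 had at least 1 FPKM in at least 3 of the 6 libraries and could be tested, 21 of them carriers. In R-treated cells 1 of the 22 fell and 0 rose. The mean FPKM of Slc7a8, the most abundant light chain, fell by 31.4%. It makes 4.55% of the tested members, beside 6.82% of all tested genes that passed, 2.39% as higher and 4.43% as lower (limma on log2(FPKM + 1), adjusted p under 0.05). The heavy chain Slc3a2, the LAT1 gene Slc7a5, the ASCT2 gene Slc1a5 and the glutamine carrier gene Slc38a2 did not pass, and their groups overlapped. At an unadjusted p under 0.05 in limma there were 7 members, each lower in R, or 31.8%, beside 24.0% of all tested genes at that level, 11.4% higher and 12.6% lower.

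Promoter sequences are shown for Slc7a8, which passed, and for the 3 members whose promoter window held a match to the amino acid response element, Slc7a11, Slc1a4 and Slc7a7. They are RefSeq sequences on GRCm38.p6, each on its gene's minus strand, from 250 bases before to 20 bases after an annotated start. Capitals mark exact matches on either strand to TGATGNAA (the amino acid response element) and to TTCNNNGAA (the site of STAT factors), which do not overlap here.
Slc7a8, chr14:54781867-54782136: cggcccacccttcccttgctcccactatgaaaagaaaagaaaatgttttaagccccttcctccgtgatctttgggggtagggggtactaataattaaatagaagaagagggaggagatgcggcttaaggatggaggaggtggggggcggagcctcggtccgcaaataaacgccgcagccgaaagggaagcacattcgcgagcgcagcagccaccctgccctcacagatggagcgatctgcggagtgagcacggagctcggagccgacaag
Slc7a11, chr3:50443594-50443863: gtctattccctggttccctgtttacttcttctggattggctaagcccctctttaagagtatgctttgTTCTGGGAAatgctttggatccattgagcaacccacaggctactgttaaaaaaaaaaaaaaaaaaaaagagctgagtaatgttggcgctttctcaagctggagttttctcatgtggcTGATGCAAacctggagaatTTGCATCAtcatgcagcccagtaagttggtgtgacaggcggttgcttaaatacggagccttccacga
Slc1a4, chr11:20332694-20332963: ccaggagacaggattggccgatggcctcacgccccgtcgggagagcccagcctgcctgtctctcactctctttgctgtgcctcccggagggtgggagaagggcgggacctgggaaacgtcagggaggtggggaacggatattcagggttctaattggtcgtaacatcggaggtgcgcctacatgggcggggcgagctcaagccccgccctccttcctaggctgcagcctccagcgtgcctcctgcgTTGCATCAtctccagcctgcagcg
Slc7a7, chr14:54417925-54418194: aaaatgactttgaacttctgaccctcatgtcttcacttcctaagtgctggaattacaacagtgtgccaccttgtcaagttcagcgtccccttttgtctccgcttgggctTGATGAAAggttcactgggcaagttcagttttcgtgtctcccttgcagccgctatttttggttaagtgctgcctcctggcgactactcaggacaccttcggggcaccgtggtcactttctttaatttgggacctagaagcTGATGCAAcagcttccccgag
The Slc7a8 window held none of the motifs searched. In Slc7a11 the matches to the amino acid response element began 66 and 47 bases before the start, on opposite strands, and the STAT-site match 183 bases before it. The match of Slc1a4 began 4 bases before its start and those of Slc7a7 141 bases and 1 base before its most upstream start.

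The search covered windows from 250 bases before to 50 bases after a start, of which 43 belonged to 32 of the members. Members without a window were not searched, among them the tested Slc1a5, Slc38a1, Slc43a3, Slc7a2, Slc7a4 and Slc7a5. The amino acid response element was found in 4 of these 43 windows, 2 of them overlapping windows of Slc7a7 that share a site, and in 3.97% of all 32817 windows. The STAT site was in 4 of the 43, those of Slc1a3, Slc38a9, Slc7a1 and Slc7a11, and in 8.29% of all. TGACNNNGC, the antioxidant response element, was in 6 of the 43 windows, 2 of them overlapping windows of Slc7a6 that share a site, and in 12.4% of all. The interferon-stimulated response element was in 0 of the 43 and in 3.43% of all, and the CLEAR element of lysosomal genes in 0 and in 0.326%. Both strands were searched, and a match describes these letters and is not evidence of a factor's binding.

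**Figure D1:**
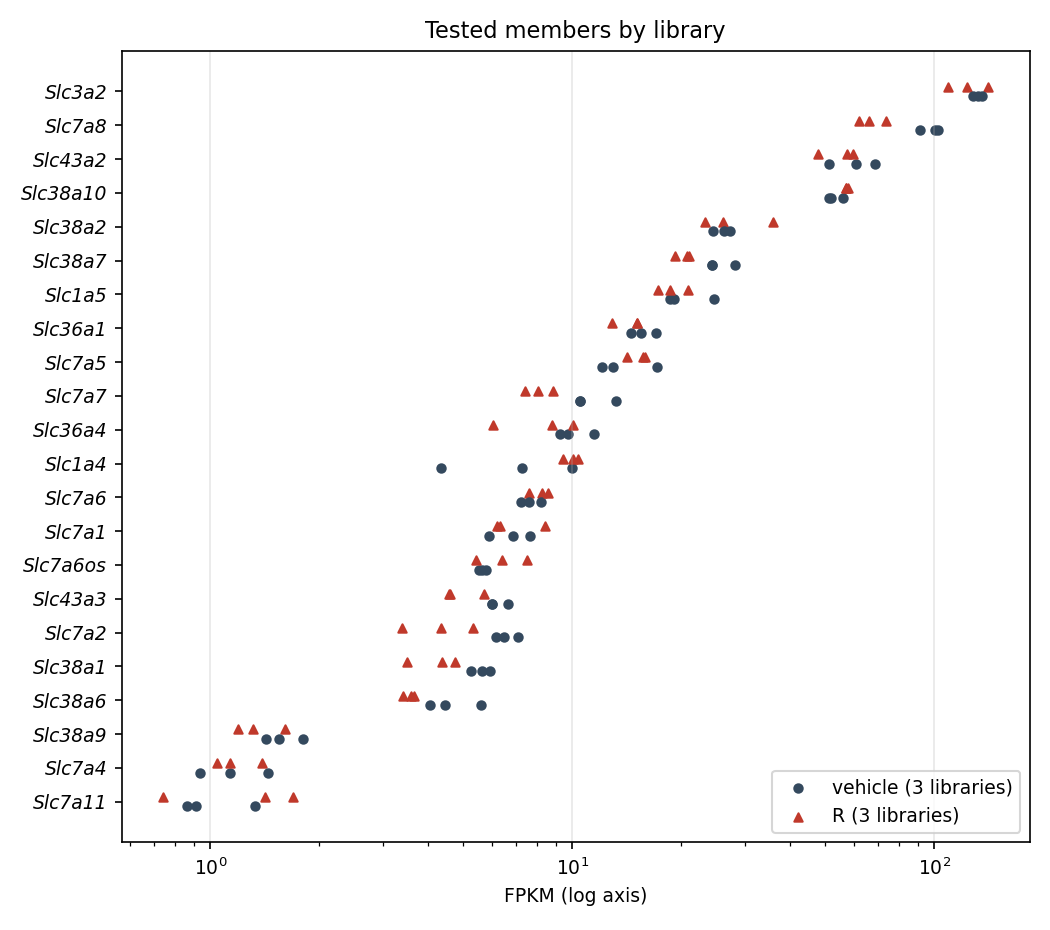
FPKM of the 22 tested members in each library on a logarithmic axis, with circles for the 3 vehicle libraries and triangles for the 3 R libraries, ordered by the mean over the 6. Slc3a2 is highest (109 to 141 FPKM) and Slc7a11 lowest (0.739 to 1.69 FPKM), and the groups lie apart in 8 of the 22.

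The heavy chain Slc3a2 (chromosome 19, 8706882 to 8723369, GRCm38) was the most abundant member and ranked 340 among the 11862 tested genes by mean FPKM. It had 141, 123 and 109 FPKM in R replicates 1, 2 and 3 and 132, 136 and 128 FPKM in vehicle replicates 1, 2 and 3. The vehicle values lay within the span of the R values. The log2 change, the mean log2(FPKM + 1) of R less that of vehicle, was -0.09 (SE 0.11, 95% interval -0.35 to 0.17, adjusted p = 0.67 in limma). The other heavy chain gene, Slc3a1, had at most 0.087 FPKM, and 26.5% of its exon length is shared with Prepl on the opposite strand.

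Slc7a8 (chromosome 14, 54722209 to 54781946), whose product exchanges neutral amino acids as LAT2, fell in R. It had 65.8, 61.9 and 73.8 FPKM in R replicates 1, 2 and 3 and 101, 102 and 91.1 FPKM in the vehicle replicates. Each R library lay below each vehicle library, and the gap between the groups, from 73.8 to 91.1 FPKM, was wider than the span within either group. The means were 67.2 ± 6.03 and 97.9 ± 5.97 FPKM (SD, n = 3 each; log2 change -0.54, SE 0.1, 95% interval -0.77 to -0.31, adjusted p = 0.023 in limma). About 5573 to 9584 reads a library stood behind these values. The direction held whichever library was left out (log2 change -0.61 to -0.48), but the call held in 2 of those 6 fits and ended without R replicate 1 or 2 or vehicle replicate 1 or 2 (adjusted p = 0.075, 0.059, 0.095 and 0.091). With every listed gene above 0 kept in the fit, the adjusted p was 0.058.

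Slc7a7 lies 304 kb from Slc7a8 on the same strand (54369442 to 54417780) and encodes y+LAT1, which exports arginine and lysine in exchange for neutral amino acids. Its values were 8.06, 7.38 and 8.86 FPKM in R and 13.2, 10.5 and 10.5 FPKM in vehicle. The groups did not overlap, and the difference did not pass (log2 change -0.44, SE 0.12, 95% interval -0.72 to -0.17, adjusted p = 0.071 in limma). On the opposite strand Oxa1l covers 7% of its exon length, and the labels do not say whether the libraries kept strand.

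The other tested light chains did not pass. Slc7a5, the LAT1 carrier of leucine and other large neutral amino acids, had 14.2, 15.7 and 15.9 FPKM in R and 12, 12.9 and 17.1 FPKM in vehicle. The spread of the vehicle libraries took in each R value (log2 change 0.13, 95% interval -0.19 to 0.44, adjusted p = 0.63 in limma). Slc7a6, the y+LAT2 gene, stood at 8.12 ± 0.505 FPKM in R and 7.68 ± 0.495 in vehicle, with overlap. Slc7a6os, 2.01 kb from it on the opposite strand, stood at 6.43 ± 1.04 and 5.63 ± 0.122 FPKM.

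Slc7a11, which imports cystine for glutathione synthesis, was the lowest of the tested members. It had 1.69, 0.739 and 1.41 FPKM in R and 0.859, 0.912 and 1.33 FPKM in vehicle, from 185 to 512 reads. The R libraries were both the highest and the lowest of the 6, and the interval of the log2 change ran from -0.3 to 0.6 (adjusted p = 0.7 in limma). The light chain genes Slc7a9, which pairs with Slc3a1, and Slc7a12 were listed at 0 in each library, and Slc7a10, Slc7a13 and Slc7a15 did not exceed 0.118 FPKM.

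The light chains that pair with Slc3a2 were also set against it within each library. Summed over Slc7a5, Slc7a6, Slc7a7, Slc7a8, Slc7a10 and Slc7a11, they came to 98, 93.4 and 109 FPKM in R and to 134, 135 and 128 FPKM in vehicle. The sum was 1.01, 0.994 and 0.995 times the Slc3a2 level in the vehicle libraries and 0.694, 0.759 and 0.994 times in the R libraries. R replicate 3, which had the lowest Slc3a2 and the highest Slc7a8 of its group, thus lay at the vehicle ratio. Slc7a8 made up 67.2%, 66.3% and 68% of the sum in R and 75.1%, 75.8% and 71.4% in vehicle. The level of Slc7a8 was 4.64, 3.94 and 4.65 times that of Slc7a5 in R and 8.35, 7.9 and 5.33 times in vehicle. These ratios were chosen after the values were seen and are given without a test.

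**Figure D2:**
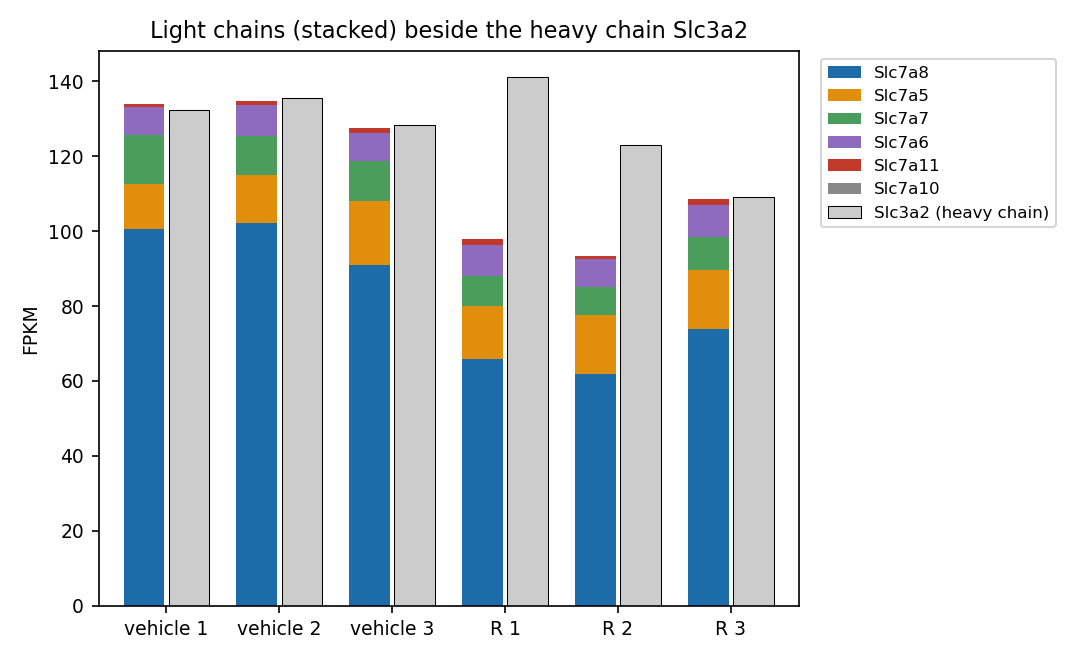
FPKM of the 6 light chains that pair with Slc3a2, stacked, beside Slc3a2 in grey, in each of the 3 vehicle and 3 R libraries. Slc7a8 is the largest segment throughout (91.1 to 102 FPKM in vehicle, 61.9 to 73.8 in R), and the stack reaches about the height of Slc3a2 in the vehicle libraries and in R replicate 3.

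Among the arginine and lysine carriers, Slc7a2 differed most, without passing. It encodes CAT2, which brings arginine into activated macrophages and other cells, and lies on chromosome 8 (40862396 to 40922308). Its values were 4.33, 3.39 and 5.31 FPKM in R and 6.49, 7.07 and 6.13 FPKM in vehicle, with each R library below each vehicle library. The log2 change was -0.52 (SE 0.14, 95% interval -0.85 to -0.18, adjusted p = 0.079 in limma), and it passed without R replicate 3 (adjusted p = 0.049). Slc7a1, the widely expressed CAT1 gene, had 6.96 ± 1.25 FPKM in R and 6.78 ± 0.88 in vehicle (95% interval of the log2 change -0.3 to 0.36). Slc7a4, a CAT by sequence, had 1.19 ± 0.176 and 1.17 ± 0.256 FPKM, and 13.3% of its exon length is shared with P2rx6 on the opposite strand. Slc7a3 had at most 0.185 FPKM and Slc7a14 was listed at 0.

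The small neutral exchangers of the Slc1a family were both tested. Slc1a5 (ASCT2), a main route of glutamine into growing cells, had 17.2, 20.8 and 18.6 FPKM in R and 18.6, 24.6 and 19 FPKM in vehicle, with overlap (95% interval of the log2 change -0.42 to 0.18). Its small difference changed sign without vehicle replicate 2 (log2 change 0). Slc1a4 (ASCT1), a carrier of serine and alanine, had 10.3, 9.43 and 10.1 FPKM in R and 4.33, 7.25 and 9.97 FPKM in vehicle. The vehicle libraries were widely spread, and vehicle replicate 3 lay among the R libraries. The log2 change was 0.48 (SE 0.24, 95% interval -0.08 to 1.04, adjusted p = 0.28 in limma), the highest among the tested members.

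The glutamate carriers of the same family were at or near the limit of detection. Slc1a1, Slc1a2 and Slc1a7 had at most 0.0385 FPKM. Slc1a3, the GLAST carrier of astrocytes, ranged up to 0.13 FPKM with R and up to 0.288 FPKM with vehicle. Slc1a6 had 0.427, 0.646 and 0.411 FPKM in R, from 20, 25 and 16 reads, and 0.0545, 0.372 and 0.0697 FPKM in vehicle, from 2, 15 and 3 reads. Its groups did not overlap, but it was too low to be tested.

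Among the SNAT carriers, Slc38a2 of system A and some intracellular members were abundant. Slc38a2, the SNAT2 gene that cells raise when starved of amino acids, had 26, 23.3 and 35.7 FPKM in R and 24.5, 26.3 and 27.2 FPKM in vehicle. R held both the highest and the lowest library (log2 change 0.1, 95% interval -0.26 to 0.46), and without R replicate 3 the sign turned (log2 change -0.07). Its neighbour Slc38a1, the SNAT1 gene 44.5 kb away, had 4.36, 3.48 and 4.73 FPKM in R and 5.94, 5.25 and 5.62 FPKM in vehicle. Each R library was below each vehicle library, and the difference did not pass (log2 change -0.35, SE 0.12, adjusted p = 0.12 in limma). The level of Slc38a2 was 5.98, 6.69 and 7.55 times that of Slc38a1 in R and 4.12, 5.02 and 4.85 times in vehicle, again without a test. Slc38a4 did not exceed 0.117 FPKM, and of the system N genes Slc38a5 was listed at 0 and Slc38a3 at up to 0.0189 FPKM.

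Slc38a7 encodes SNAT7, which exports glutamine from lysosomes (chromosome 8, 95835920 to 95853539). It had 20.7, 19.2 and 21.1 FPKM in R and 28.1, 24.3 and 24.3 FPKM in vehicle. The groups lay apart, without passing (log2 change -0.31, SE 0.09, 95% interval -0.53 to -0.1, adjusted p = 0.089 in limma). Slc38a9, the lysosomal arginine sensor of the growth kinase complex mTORC1, had 1.37 ± 0.211 FPKM in R and 1.59 ± 0.196 in vehicle, with overlap.

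The remaining tested SNAT genes differed in opposite directions, and neither passed. Slc38a6 had 3.65, 3.58 and 3.4 FPKM in R and 5.61, 4.05 and 4.44 FPKM in vehicle (log2 change -0.32, adjusted p = 0.17 in limma). Slc38a10 was the one tested member whose R libraries all lay above the vehicle libraries. Its values were 57.1, 57.8 and 56.9 FPKM in R and 51.7, 51.2 and 56 FPKM in vehicle, a log2 change of 0.11 (95% interval -0.07 to 0.29, adjusted p = 0.43 in limma). Slc38a8 and Slc38a11 were listed at 0.

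Neither proton-coupled carrier that could be tested passed. Slc36a1 (PAT1), which works at the lysosome and the cell surface, had 14.4 ± 1.27 FPKM in R and 15.7 ± 1.28 in vehicle. Slc36a4 (PAT4) had 8.79, 6.04 and 10 FPKM in R and 11.5, 9.23 and 9.7 FPKM in vehicle, with overlap (95% interval of the log2 change -0.69 to 0.13). Slc36a2 was too low to be tested, at 0.24, 0.239 and 0.17 FPKM in R (10 to 17 reads) and 0.054, 0.0984 and 0.0921 FPKM in vehicle (3 to 6 reads), so that the groups lay apart. Slc36a3 had a single read in the 6 libraries.

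In the Slc43a family Slc43a2 was the abundant gene. It encodes LAT4, a uniporter of branched-chain amino acids, and had 57.5, 47.9 and 59.6 FPKM in R and 68.7, 60.8 and 51.1 FPKM in vehicle, with overlap (log2 change -0.12, 95% interval -0.44 to 0.19). Slc43a3, the nucleobase carrier, had 4.55, 5.69 and 4.6 FPKM in R and 6.01, 6.01 and 6.63 FPKM in vehicle. Its groups lay apart without passing (log2 change -0.28, SE 0.11, adjusted p = 0.16 in limma). Slc43a1 (LAT3), 73 kb from it, was too low to be tested. It ranged from 0.129 to 0.146 FPKM with R and from 0 to 0.112 FPKM with vehicle, without overlap.

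**Figure D3:**
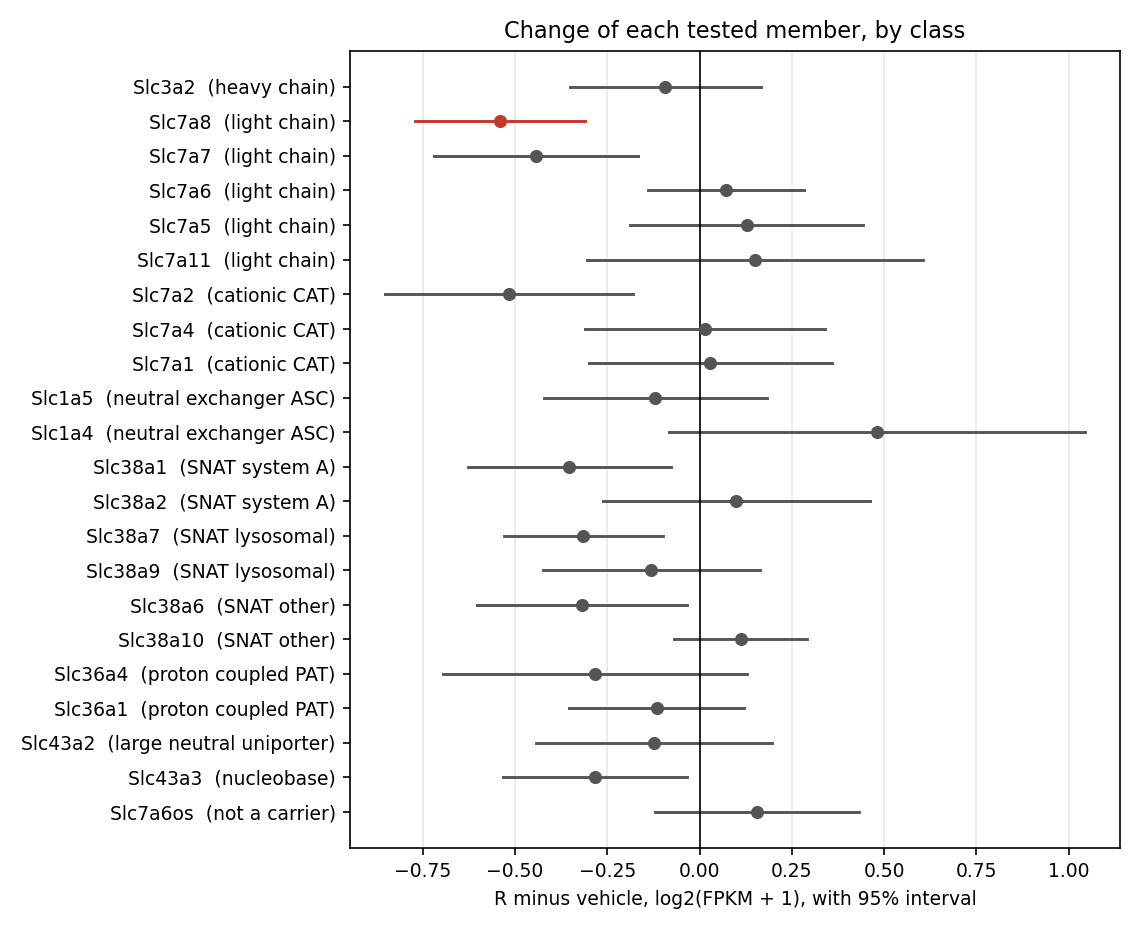
Log2 change (mean log2(FPKM + 1) of R less that of vehicle) of the 22 tested members, grouped by transport class, with the 95% interval from limma as a line. Slc7a8, in red, was the one that passed (-0.54), and for 21 of the 22 the interval lies between -1 and 1, the exception being Slc1a4 (up to 1.04).

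Across the tested members the median log2 change was -0.12, beside 0 over all tested genes. Of the members, 13 were negative and 9 positive, beside 6018 and 5844 of the 11862 tested genes. The R libraries lay wholly below the vehicle libraries in 7 of the 22 (31.8%, beside 15.5% of all tested genes) and wholly above in 1 (4.55%, beside 13.9%), where 29.3% of all tested genes lay apart in either direction. The 7 were Slc7a8, Slc7a7, Slc7a2, Slc38a7, Slc38a1, Slc38a6 and Slc43a3, whose mean FPKM in R differed from vehicle by -20.4% to -33.8%. They include members of each of 3 families and of 6 transport classes, and each class with a second tested member also held one whose groups overlapped or lay the other way. Among the 21 carriers that could not be tested, 3 had R libraries wholly above vehicle and 0 wholly below. Those 3 had 0 to 25 reads a library. The share over all untested genes was not taken, so no direction is read from these counts. The 21 carriers had at most 0.646 FPKM in a library. Of them 6 were listed at 0 throughout, where 3 reads would have given 0.014 to 0.101 FPKM, depending on gene and library.

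**Figure D4:**
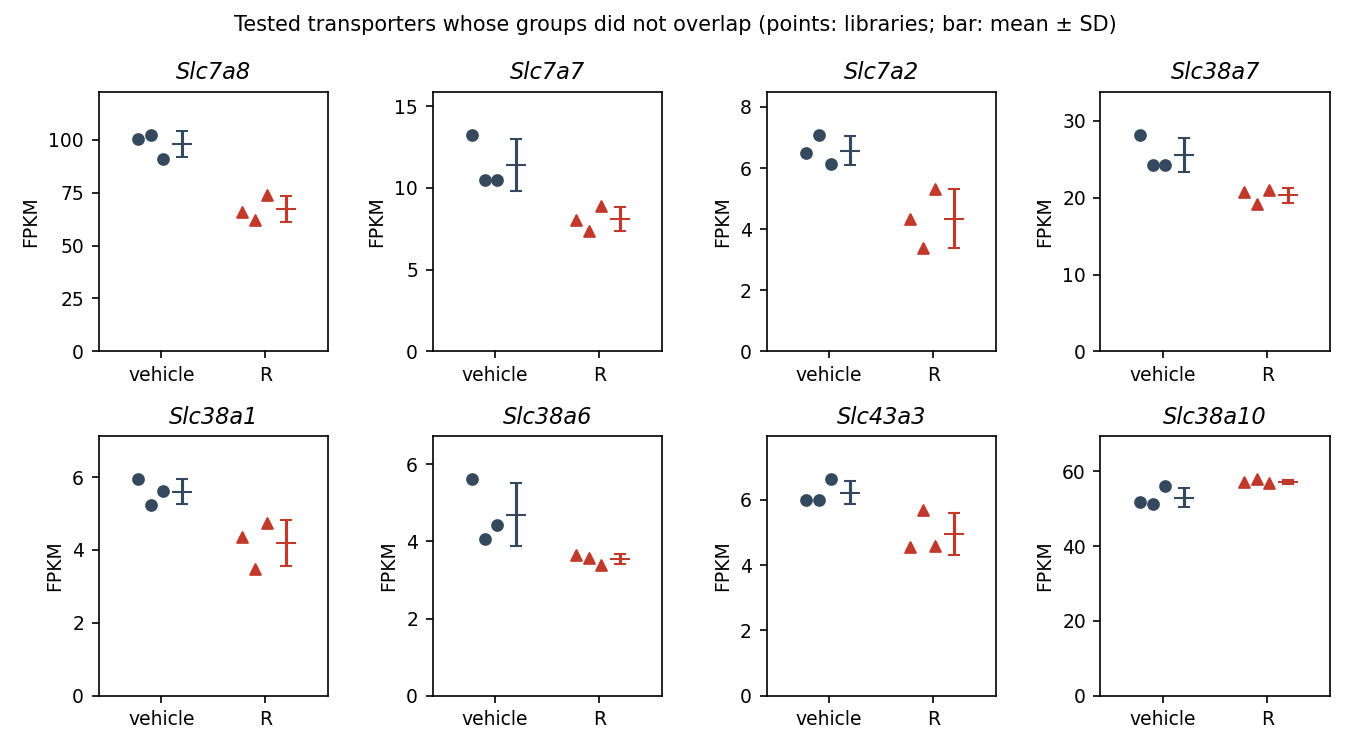
FPKM of the 8 tested members whose groups did not overlap, 1 panel each, with circles for vehicle libraries, triangles for R libraries and bars for the mean ± SD (n = 3). In 7 panels R is lower, from Slc7a8 (61.9 to 73.8 against 91.1 to 102) to Slc38a6, and in Slc38a10 it is higher by a small amount (56.9 to 57.8 against 51.2 to 56).

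Markers of macrophages fell in part in the same libraries. Of 20 tested, 4 fell (Msr1, Fcgr1, Itgam and Aif1) and 0 rose, beside 4.43% lower and 2.39% higher of all tested genes. In 12 the R libraries lay wholly below the vehicle libraries, beside 15.5% of all, and the median log2 change was -0.42. With a library left out, the call of Aif1 held only without vehicle replicate 3 (adjusted p = 0.053 to 0.082 in limma otherwise). The summed level of the macrophage markers ranged from 14406 to 18201 FPKM with R and from 17676 to 23512 FPKM with vehicle. Most of that sum was Lyz2, at 8707 to 10798 FPKM with R and 9920 to 12885 FPKM with vehicle, which did not pass (adjusted p = 0.54 in limma). Stromal markers summed to between 1740 and 2003 FPKM with R and between 783 and 1341 FPKM with vehicle, with 1 of 13 tested higher, Sparc, and 0 lower. Of these 13, 6 had R libraries wholly above the vehicle libraries (beside 13.9% of all tested genes) and 0 wholly below (beside 15.5%). Their log2 changes were positive in 8 and negative in 5, from -1.31 (Cxcl12) to 1.7 (Mcam), with a median of 0.62. Of 3 tested lymphocyte markers Nkg7 fell (log2 change -1.47, adjusted p = 0.0079 in limma), while Trbc2 and Cd4 did not pass (log2 changes -1.02 and 0.64). Nkg7 had 0, 0.243 and 0.182 FPKM in R and 3.01, 2.16 and 1.48 FPKM in vehicle. It reached the 1 FPKM filter only through the vehicle libraries, so its call is not independent of that filter. With pseudocounts of 0.1 and 5 its log2 change was -3.39 and -0.48. Lymphocyte markers summed to 3.21 to 7.9 FPKM (R) and 7.14 to 11.4 FPKM (vehicle), neutrophil markers to 6.84 to 10.3 and 9.48 to 16.5, and endothelial markers to 3.53 to 7.4 and 2.23 to 2.93. Beside the log2 change of -0.54 for Slc7a8, those of the 20 macrophage markers ran from -2.47 (Fcgr1) to 0.88 (Cx3cr1), 18 of them negative, and the defining genes Csf1r, Lyz2 and Cd68 had -0.3, -0.23 and 0.11. The part of these cells in the carrier levels was not tested, and in such bulk samples fewer cells of a type and less RNA per cell cannot be told apart.

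Of 30 listed amino acid carriers of other families, 16 could be tested. Of these 1 fell and 0 rose, beside 4.43% lower and 2.39% higher of all tested genes, and the median log2 change was -0.12. The one that fell was Slc15a3, a lysosomal carrier of histidine and peptides found in immune cells. It had 75.4, 50.5 and 57.3 FPKM in R and 134, 115 and 113 FPKM in vehicle (log2 change -0.99, SE 0.16, adjusted p = 0.014 in limma), a call lost when R replicate 3 or vehicle replicate 1 was left out (adjusted p = 0.051 and 0.055). Slc6a8, the creatine carrier, had 43.4 ± 10.2 FPKM in R and 28.6 ± 3.82 in vehicle (adjusted p = 0.11). The mitochondrial carriers Slc25a44 and Slc25a13 did not pass either (log2 changes -0.3 and -0.32).

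Genes that use arginine, polyamines or glutamine fell in 2 of 18 cases and rose in 0, beside 4.43% lower and 2.39% higher of all tested genes. Gatm, the first enzyme of creatine synthesis from arginine, had 9.33 ± 0.595 FPKM in R and 20.3 ± 3.84 in vehicle (log2 change -1.03, SE 0.14, adjusted p = 0.007 in limma), and passed under each of the 14 alternatives tried. Nos2, which makes nitric oxide from arginine, had 0.0104, 0 and 0.0251 FPKM in R and 1.51, 1.34 and 4.44 FPKM in vehicle. It reached the 1 FPKM filter only through the vehicle libraries, so its call is not independent of that filter. Its call (adjusted p = 0.026 in limma) ended without any one of the R libraries (adjusted p = 0.071 to 0.084). Gpt2 and Ckb did not pass (log2 changes 0.33 and 0.36).

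Genes of the amino acid response linked to ATF4 were higher in part, in a list that also held Atf4 itself and the kinase gene Eif2ak4. Of 19 tested, 3 rose and 0 fell, beside 2.39% higher and 4.43% lower of all tested genes. Among the 19, 17 log2 changes were positive, beside 5844 of the 11862 tested genes, and the median was 0.31. The R libraries lay wholly above the vehicle libraries in 8 (beside 13.9% of all) and wholly below in 0 (beside 15.5%). Chac1, which degrades glutathione, had 11.1, 16.4 and 15.2 FPKM in R and 5.3, 8.12 and 8.43 FPKM in vehicle (log2 change 0.89, SE 0.2, adjusted p = 0.044). Trib3, a pseudokinase that feeds back on ATF4, had 7.57 ± 1.12 and 4.45 ± 0.802 FPKM (adjusted p = 0.042), and the stress protein gene Nupr1 48.2 ± 12.3 and 20.7 ± 7.31 FPKM (adjusted p = 0.039). In limma the number that rose was 0 to 2 when a library was left out. The call of Nupr1 held without vehicle replicate 2, that of Trib3 without vehicle replicate 3 and that of Chac1 without R replicate 1 or vehicle replicate 3, and each ended in the other such fits (adjusted p up to 0.13, 0.14 and 0.12). Phgdh, the first enzyme of serine synthesis, had 45.9 ± 13.5 and 24.9 ± 5.84 FPKM and did not pass (adjusted p = 0.089). Of the carriers with a promoter match to the element, Slc1a4 was positive, Slc7a11 near 0 relative to its error and Slc7a7 negative (log2 changes 0.48, 0.15 and -0.44), and none of the 3 passed over all genes.

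Downstream of the carriers, 0 of 32 tested genes of amino acid sensing by mTORC1 passed limma's threshold, beside 6.82% of all tested genes. At an unadjusted p under 0.05 in limma there were 3 of the 32, beside 24.0% of all. Rragd, a RAG GTPase, was nearest, at 6.99 ± 1.7 FPKM in R and 4.19 ± 0.597 in vehicle (adjusted p = 0.093), with Rheb, Castor1 and Fnip2 next (log2 changes 0.26, 0.45 and -0.44). Of 12 tested genes of glutathione synthesis and cystine use, Chac1 rose and 0 fell, beside 2.39% higher and 4.43% lower of all tested genes. An unadjusted p under 0.05 in limma was seen for 9 of the 12, beside 24.0% of all. The R libraries lay wholly above the vehicle libraries in 4 (beside 13.9% of all) and wholly below in 4 (beside 15.5%). Nfe2l2, Keap1 and Txnrd1 did not pass (adjusted p = 0.056, 0.059 and 0.067 in limma). Of 11 tested genes that use branched-chain amino acids or tryptophan 0 passed, with 2 at an unadjusted p under 0.05 in limma (beside 24.0% of all). Bcat1 was nearest (7.13 ± 1.12 and 3.78 ± 1.32 FPKM, adjusted p = 0.069 in limma), with Wars, Vars and Bcat2 at log2 changes of -0.23, -0.2 and -0.2.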

How the data were processed

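RNA sequencing of 3 R and 3 vehicle libraries was used, grouped by their titles. The authors deposited one table of FPKM per gene, computed before deposit. The submitters' processing notes name edgeR 3.18.1 and the build GRCm38 (mm10); aligner, counter, annotation and strandedness were not given in the sources used here. Of the table's lines 49328 were complete and 1 was broken off. Symbols came from GENCODE M21 on GRCm38 for 49281 identifiers and were not found for 47. Reads were estimated as FPKM times exon length times a library's depth, which gave whole numbers within 0.02 reads for 98.3% to 98.4% of values under 20.5 reads. They rest on that annotation and cover counting error only.

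log2(FPKM + 1) was fitted in limma 3.58.1 (R 4.3.3) as a model of the groups, with trended empirical Bayes moderation and Benjamini-Hochberg adjustment over the 11862 genes with at least 1 FPKM in at least 3 libraries. A fold on this scale understates the change of low genes. The script was tested on simulated data. Members, gene lists, motifs and classes were chosen with earlier results of these data known. Named genes were the members and up to 4 tested genes with the smallest p-values of each list; other names are defining markers or were chosen after their values were seen. Values are given in full for members that passed, had a mean of at least 20 FPKM or an unadjusted p under 0.05, and for further members chosen after the values were seen. Lists are described by counts and medians, with no set test. A planned comparison of protein sequences was not made. Alternatives were pseudocounts of 0.1 and 5, no filter and a filter of 5 FPKM, quantile normalization, equal medians, no trend, a replicate block and leaving out each library with the tested genes kept.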

Additional observations from a re-analysis of the deposited data

How the results depend on the processing

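Slc7a8 kept its direction under each of the 14 alternatives (log2 change -0.61 to -0.48) and its call under 8. The count of members that fell was 1, and 0 without a filter on low values or with the replicate number as a block (adjusted p for Slc7a8 = 0.058 and 0.056 in limma), and 0 to 2 when a library was left out; the count that rose was 0 in every fit. All genes called numbered 809 (284 higher, 525 lower), 344 (65 and 279) without the filter and 337 to 879 (63 to 352 and 272 to 527) with a library left out. Whether the replicate numbers pair samples is not stated. Deviations from the group means correlated at 0.142, -0.012 and -0.031 for numbers 1, 2 and 3, and at -0.139 to 0.137 between unlike numbers. With 3 samples a group these values do not settle whether the numbers pair. With the replicate block 756 genes were called, the calls of Nupr1 and Trib3 ended (adjusted p = 0.054 and 0.077 in limma), Phgdh passed (adjusted p = 0.035), and the lists of mTORC1 sensing and stroma had 1 and 3 rises in place of 0 and 1. Without the filter the lists changed to 0 falls of other carriers, 0 rises in the ATF4 response, glutathione and stromal lists, 1 fall in arginine use and 2 lymphocyte falls. The stricter filter gave 2 glutathione falls. It left Nos2 and Nkg7 untested, so that 1 fall in arginine use and 0 lymphocyte falls remained. A pseudocount of 5 gave 1 fall in arginine use, quantile normalization 2 glutathione rises and no trend 0 stromal rises. With a library left out, the ranges were 0 to 1 falls of other carriers, 0 to 1 rises in mTORC1 sensing, 0 to 2 in the ATF4 response, 0 to 1 rises and 0 to 1 falls in glutathione, 1 to 2 falls in arginine use, 0 to 1 rises in branched-chain use, 3 to 6 macrophage falls, 0 to 1 stromal rises and 1 to 2 lymphocyte falls. The cause of the other shifts was not tested. Beside these, Slc1a5 and Slc38a2 changed sign in 1 alternative each and Slc7a1 and Slc7a4 in 2 each, none of which passed in limma in any fit. With 3 libraries a group, small changes of members may have gone undetected. Among the tested members, reads were fewest for Slc7a4 (73 to 125 a library), followed by Slc7a11 (185 to 512).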
